A study of Rattus norvegicus with 11 samples.

Results

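The 7 genes described here encode the D-type cyclins (Ccnd1, Ccnd2 and Ccnd3), their kinase partner Cdk4, the cyclin-dependent kinase inhibitors p21 (Cdkn1a) and p27 (Cdkn1b), and the replication clamp Pcna. They were taken by name, as every probe set whose platform annotation gives one of these symbols alone, and this yielded 17 of the 8740 probe sets on the array that are not controls, and 7 of 4736 genes named in this way. Ccnd1 had 5 probe sets, Ccnd3 had 4, Ccnd2, Cdkn1a and Pcna had 2 each, and Cdk4 and Cdkn1b had 1 each. The arrays were hybridised with total RNA from ventricles of rats of the inbred strain Fischer-344. The old group comprised 6 arrays from rats of 22 months and the young group 5 arrays from rats of 4 months. The labels name no treatment, sex or genotype beyond the strain, and do not say whether each array stands for a separate animal, so p-values measure the spread between arrays, which may be technical.

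D-type cyclins bind the kinases Cdk4 and Cdk6, and the active complex phosphorylates the retinoblastoma protein, which releases E2F transcription factors and lets a cell leave the G1 phase. The proteins p21 and p27 bind cyclin-kinase complexes and restrain this step, and p21 also binds the clamp Pcna, which holds DNA polymerases on the template during replication and repair. Most heart muscle cells of adult mammals have left the cell cycle, so messages of these genes in ventricle may also come from fibroblasts, endothelial cells and leukocytes.

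Upstream sequence is shown for Ccnd3, the gene with 3 tested probe sets at an unadjusted p under 0.05, and for Cdk4, the kinase that its product activates. RefSeq's table for assembly GRCr8 held upstream sequence for 5 of the 7 genes, all but Ccnd1 and Ccnd2. The 250 bases before the annotated start were searched on both strands for the GC box GGGCGG, the CCAAT box CCAAT, the E-box CACGTG and the core TGACGT of the cyclic AMP response element. Matches are in capitals, and no match overlapped another. The Ccnd3 window lies at chr9:20897876-20898125 on the minus strand, and the start that it precedes does not match the start of the gene's full span. The Cdk4 window lies at chr7:64771203-64771452 on the plus strand.
Ccnd3: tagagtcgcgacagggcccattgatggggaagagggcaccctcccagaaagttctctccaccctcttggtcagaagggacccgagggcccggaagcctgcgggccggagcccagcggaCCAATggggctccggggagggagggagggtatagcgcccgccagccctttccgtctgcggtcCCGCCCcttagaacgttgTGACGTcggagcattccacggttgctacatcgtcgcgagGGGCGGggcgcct
Cdk4: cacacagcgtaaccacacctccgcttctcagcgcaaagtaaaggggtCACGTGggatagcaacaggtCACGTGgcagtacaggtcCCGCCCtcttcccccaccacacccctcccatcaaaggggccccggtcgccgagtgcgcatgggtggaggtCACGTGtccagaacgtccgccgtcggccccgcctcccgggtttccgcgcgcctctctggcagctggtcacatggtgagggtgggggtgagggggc
The Ccnd3 window held 2 GC boxes, 1 CCAAT box and 1 TGACGT core, and the Cdk4 window held 3 E-boxes and 1 GC box. Of all 33469 windows of this length in the table, 30.5% held a GC box, 34.0% a CCAAT box, 5.6% an E-box and 6.9% a TGACGT core. These matches describe letters in the sequence and are not shown here to be bound sites.

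Expression values are log2 of the deposited intensity, after values below a floor of 47.4 (5.57 on the log2 scale) were raised to it, and each difference is old minus young on this scale with limma's standard error (SE). A probe set was tested if its mean over all arrays was at least 7.0 on the log2 scale, and 13 of the 17 probe sets passed this filter. The 4 that did not were Ccnd1 rc_AI231257_at, Ccnd3 U49935mRNA_r_at, Cdkn1a L41275cds_s_at and the sole probe set of Cdkn1b. The 11 heart muscle markers that were measured, of 14 listed, averaged 14.57 ± 0.16 on the log2 scale in old (SD, n = 6) against 14.75 ± 0.18 in young (SD, n = 5), far above the floor, so the defining genes of the labelled tissue were present. Arrays differed in the control readings given next, and the part of this in the values of the genes below was not tested. Old replicates 3 and 4 had GAPDH 3' over 5' log2 ratios of 3.39 and 4.09, against 0.07 to 0.77 in the other 9 arrays, and a high ratio is a known sign of RNA degradation. The bacterial spike-in controls of the hybridisation were bright in old replicates 3 to 6 and young replicate 4 and dim in the other 6 arrays, so 4 of 6 old but 1 of 5 young arrays were bright. Their mean log2 intensity was 9.55 to 10.20 in the dim arrays, 11.97 in young replicate 4 and 13.19 to 15.24 in the bright old arrays. The 2 classes were split at the widest gap, 1.76, and the next gap, below old replicate 6, was nearly as wide at 1.71.

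**Figure D1:**
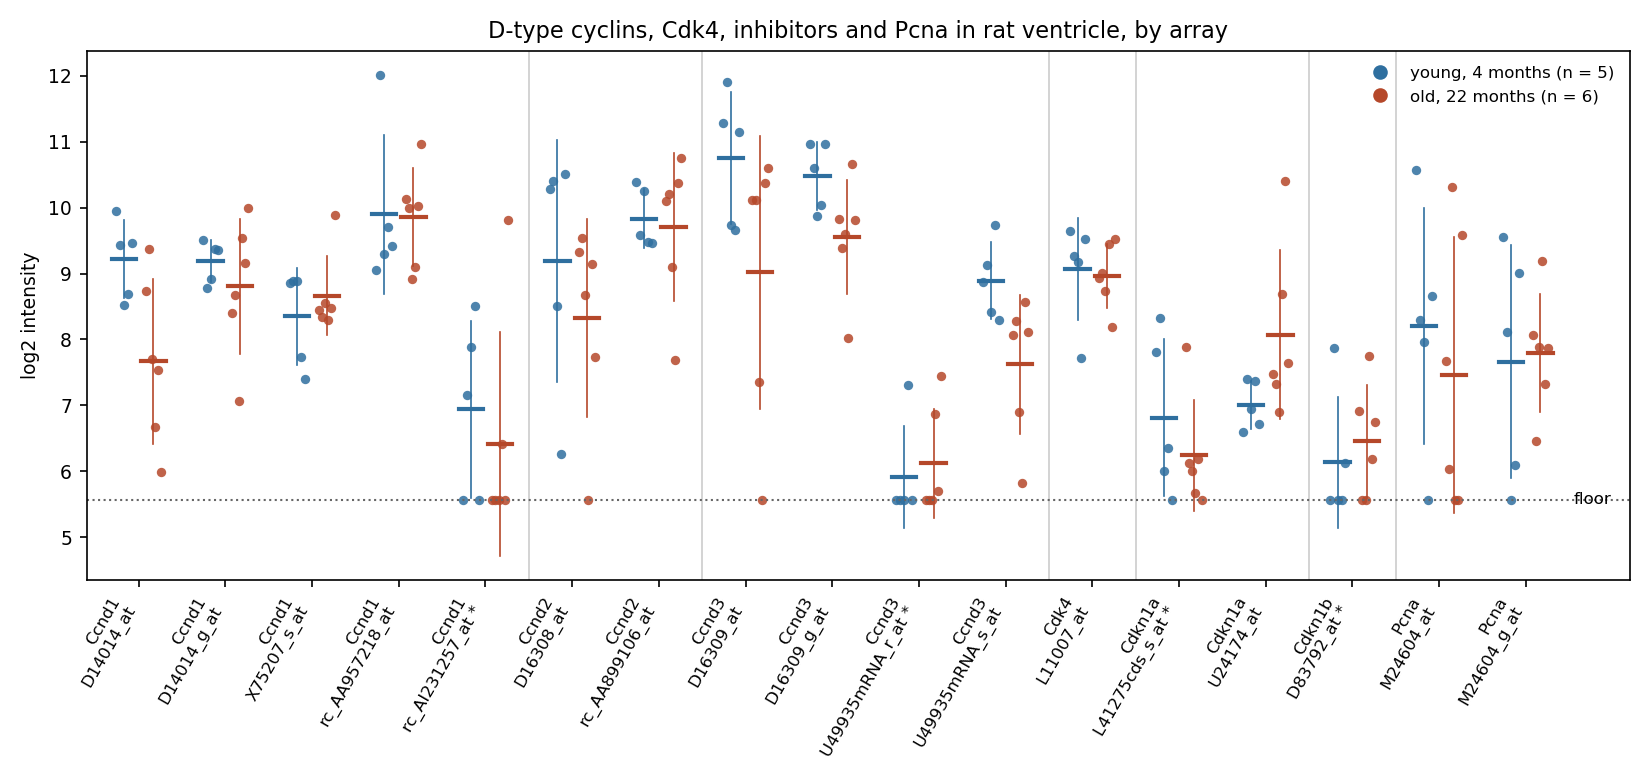
Log2 intensity (vertical axis) of each of the 17 probe sets (horizontal axis, asterisk for the 4 not tested) in every array, with young arrays in blue and old arrays in red; thick bars are group means, thin bars the SD, and the dotted line the floor of 5.57. The age groups overlapped in every probe set, and the old arrays reached lower than the young ones in all 3 tested probe sets of Ccnd3.

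Across the D-type cyclins, 8 of 9 tested probe sets had a lower mean in old hearts, and 0 passed an adjusted p of 0.05. Over all 5244 probe sets tested, limma called 0 (0%) at that threshold, while 394 (7.51%) had an unadjusted p under 0.05, and an exact permutation test over arrays also called 0 after adjustment, with 384 under 0.05 before it. Differences below 0 made up 50.6% of all tested probe sets. At an unadjusted p under 0.05, 4 of the 9 cyclin probe sets were lower in old, against 4.12% of all probe sets, and 3 of these 4 read the same gene, Ccnd3, on the same arrays. The median difference was -0.87 for the 9 cyclin probe sets and -0.01 for all tested probe sets. With each gene read by its probe set of highest mean, the differences were -0.04 for Ccnd1, -0.13 for Ccnd2 and -0.93 for Ccnd3. Both counts moved with the fit and with single arrays. With spike-in class as a blocking factor, 5 of 9 were lower and 0 had an unadjusted p under 0.05, and without old replicates 3 and 4, 6 of 9 were lower and again 0 did. Leaving out single arrays gave 6 to 8 lower probe sets. It left 1 under 0.05 without old replicate 4 or young replicate 1 or 2, and 2 without old replicate 3 or young replicate 5. The fit after quantile normalization and the fit with no trend also left 2. None of the 13 tested member probe sets had groups that did not overlap, against 0.973% of all tested probe sets.

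Ccnd3, which encodes cyclin D3, was lower on average in old hearts in each of its 3 tested probe sets, with differences from -1.72 to -0.93 on the log2 scale. In probe set D16309_at, old replicates 1 to 6 read 10.12, 10.11, 7.35, 5.57, 10.38 and 10.60, and young replicates 1 to 5 read 11.29, 11.90, 9.74, 9.65 and 11.15. Old replicates 3 and 4 stood far below the other old arrays, with replicate 4 at the floor, and the other old arrays lay among the lower young ones. The difference was -1.72 ± 0.75 (SE, limma adjusted p = 0.609, unadjusted p = 0.0336), with all 6 old arrays below the young mean.

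In probe set D16309_g_at, named for the same sequence accession, the old arrays read 9.83, 9.39, 9.61, 8.02, 10.66 and 9.81 and the young arrays 10.96, 10.59, 9.87, 10.04 and 10.97. Here 5 of 6 old arrays lay below every young array, and old replicate 5 lay among the highest young ones. This gave -0.93 ± 0.42 (SE, limma adjusted p = 0.639, unadjusted p = 0.0379). In U49935mRNA_s_at, named for another accession, the old arrays read 8.07, 8.27, 6.89, 5.82, 8.57 and 8.11 and the young arrays 8.87, 9.14, 8.41, 9.73 and 8.29. All 6 old arrays were below the young mean, old replicates 3 and 4 were again the lowest, and the difference was -1.27 ± 0.55 (SE, limma adjusted p = 0.606, unadjusted p = 0.0327). By the exact permutation test the unadjusted p-values were 0.134, 0.0498 and 0.0303 in the same order, with adjusted p of 0.671 or more.

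The size of the Ccnd3 difference moved with the arrays of high GAPDH ratio and with the spike-in class. Without old replicates 3 and 4 the 3 differences were -0.44 ± 0.45, -0.56 ± 0.38 and -0.63 ± 0.45 (SE), still below 0, with a smallest limma adjusted p of 0.897. With spike-in class as a blocking factor they were -1.01 ± 0.79, -0.81 ± 0.47 and -1.21 ± 0.63 (SE), all with a limma adjusted p of 0.938 or 0.939. Within the dim arrays, 2 old and 4 young, the differences were -0.90, -0.99 and -0.51, and among bright arrays, of which 1 is young, they were -1.18, -0.51 and -2.39. Markers of other cell types also differed in old replicates 3 and 4. Over the tested genes of a list, mean log2 intensity in these arrays was 10.77 and 11.08 for smooth muscle, against 8.21 to 9.99 in the others, and 12.05 and 12.22 for fibroblasts, against 11.01 to 11.89. Summed intensity did not set both apart in this way. It was 10195 and 20682 for smooth muscle, against 6717 to 15893 in the others. For fibroblasts it was 90333 and 100735, against 42446 to 114562. Endothelial markers were low. Of 10 listed, 6 were measured and 4 tested, all 4 with a mean below young and 0 past the threshold, and their summed intensity was 469 and 785 in these arrays, against 1737 to 2437 in the other old arrays and 1699 to 2431 in the young ones. No intensity in the table was 0. Among markers of other cells, summed intensity overlapped between the age groups in every list. Of tested fibroblast markers 6 were higher and 4 lower in old (median 0.29), of smooth muscle markers 4 and 1 (0.99), and of macrophage and leukocyte markers 5 and 2 (0.21), with the highest summed leukocyte intensity, 42397, in old replicate 3. Of fat cell markers 3 were higher and 2 lower (0.81), of skeletal muscle markers 2 and 1 (0.85), and of red cell and atrial markers 3 of 3 each were higher (1.29 and 0.95). The highest summed atrial intensity, 97376, was in old replicate 4, against 3758 to 35863 in the other arrays. No marker passed the threshold, and 9 had an unadjusted p under 0.05, lower in old for Ckm, Sparc and Des and higher for Lum, Mgp, C1qb, Lyz2, Cfd and Nppa. Of all 3206 genes tested through their probe set of highest mean, 3.18% were higher and 3.68% lower in old at that unadjusted p. The part of these array and cell type differences in the Ccnd3 values was not tested, and in RNA from whole ventricle fewer cells of a type and less RNA per cell cannot be told apart.

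The fourth Ccnd3 probe set, U49935mRNA_r_at, was at the floor in 7 of 11 arrays. It read 7.44, 6.87 and 5.71 in old replicates 6, 4 and 5 and 7.31 in young replicate 4, which are 4 of the 5 arrays with bright spike-ins. Its old mean was 6.12 ± 0.83 (SD, n = 6) against 5.92 ± 0.78 (SD, n = 5) for young, too near the floor for a test.

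Over all 11 arrays, Pearson correlations between the tested Ccnd3 probe sets lay above the upper quartile of same-gene pairs. Without old replicates 3 and 4, those with U49935mRNA_s_at fell below that value of 0.50. Pearson's r over the 11 arrays was 0.86 between D16309_at and D16309_g_at (Spearman's rho 0.71), 0.84 between D16309_at and U49935mRNA_s_at (rho 0.50) and 0.75 between D16309_g_at and U49935mRNA_s_at (rho 0.72). Across all 1403 pairs of tested probe sets that share a gene, the median r was 0.21 and the quartiles were -0.06 and 0.50. The points of each pair share their arrays and RNA, and these correlations are descriptions with no test. Without old replicates 3 and 4 they were 0.69, 0.07 and 0.28. Within the 6 dim arrays, which also leave out those 2, they were 0.81, 0.78 and 0.55.

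**Figure D2:**
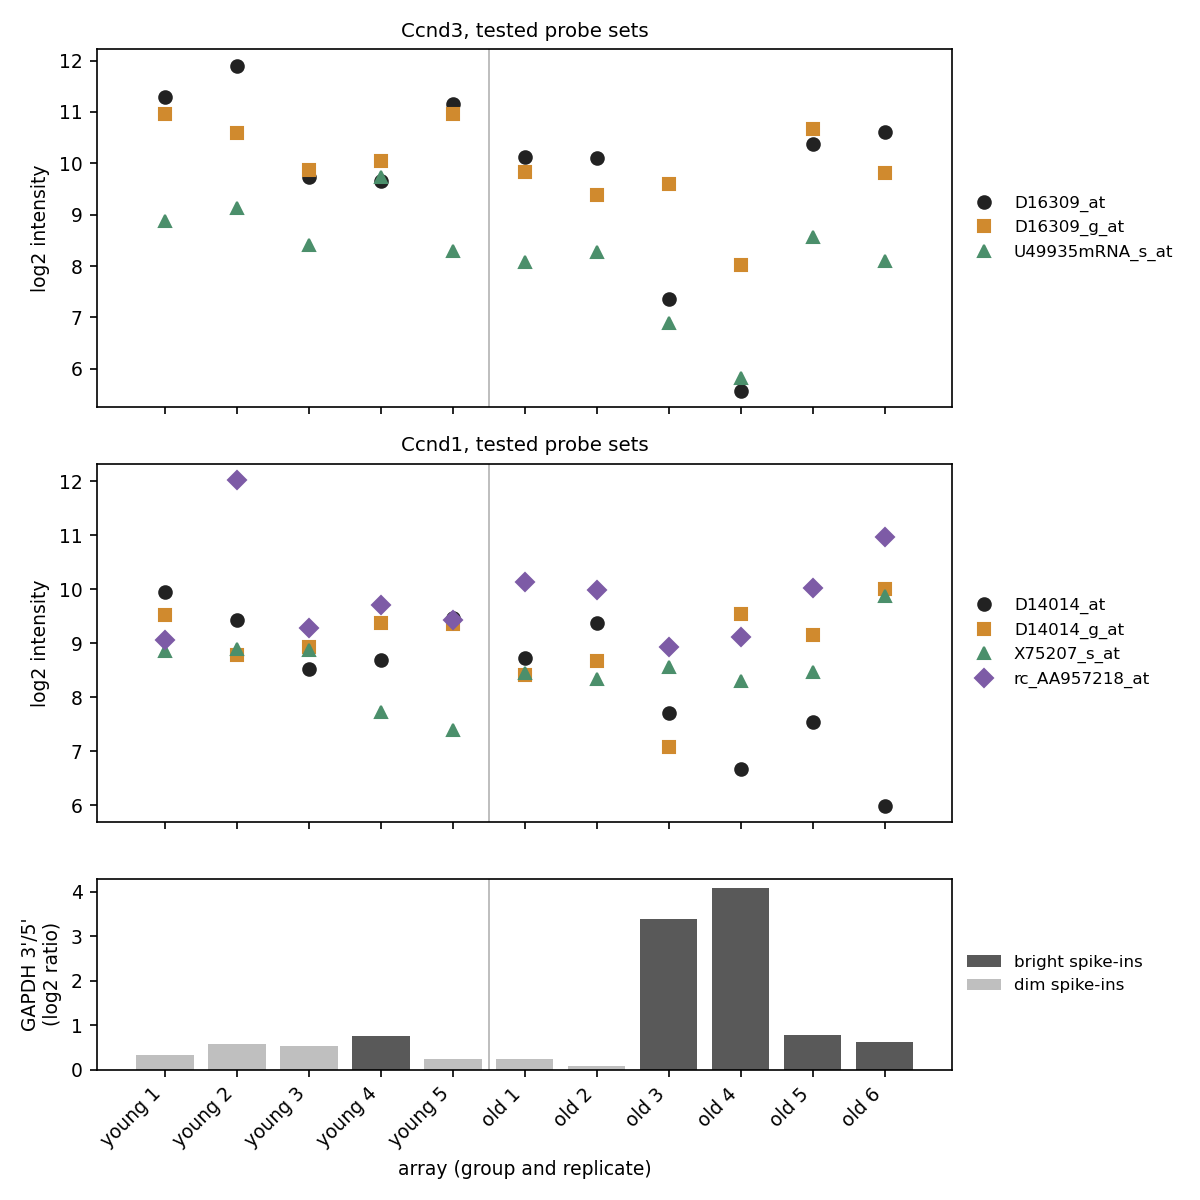
Log2 intensity of the tested probe sets of Ccnd3 (top) and Ccnd1 (middle) in each array, and the log2 GAPDH 3' over 5' ratio (bottom; dark bars for arrays with bright spike-ins), with young arrays left of the grey line and old arrays right of it. Ccnd3 readings were lowest in old replicate 4 in all 3 probe sets, while the Ccnd1 probe sets ranked the same arrays differently.

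Ccnd1, which encodes cyclin D1, had 4 tested probe sets with differences on both sides of 0. In D14014_at the old arrays read 8.73, 9.37, 7.71, 6.68, 7.53 and 5.99 and the young arrays 9.95, 9.43, 8.53, 8.70 and 9.46. Old replicates 3 to 6, the bright old arrays, were the 4 lowest of all 11, and the groups overlapped through old replicates 1 and 2. Young replicate 4, the bright young array, read 8.70. The difference of -1.55 ± 0.58 (SE, limma adjusted p = 0.56, unadjusted p = 0.0149; exact permutation p = 0.0411) was the one of smallest p among the genes described here, and it ranked 129 of 5244. With spike-in class as a blocking factor it was -0.83 ± 0.56 (SE, limma adjusted p = 0.938), and it was -1.31 ± 0.62 (SE) without old replicates 3 and 4, -0.29 within the dim arrays and -1.72 within the bright ones.

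D14014_g_at, named for the same accession, read 8.41, 8.67, 7.07, 9.54, 9.16 and 9.995 in old and 9.51, 8.77, 8.92, 9.37 and 9.36 in young. Old replicate 6 was the highest of the 11 arrays here and the lowest in D14014_at. The difference was -0.38 ± 0.48 (SE, limma adjusted p = 0.868), and it was -0.03 ± 0.41 (SE) without old replicate 3. The 2 probe sets had an r of -0.16 over the 11 arrays and of 0.65 within the 6 dim arrays. The other tested Ccnd1 probe sets differed by -0.04 ± 0.50 (rc_AA957218_at, SE, limma adjusted p = 0.988) and 0.31 ± 0.47 (X75207_s_at, SE, limma adjusted p = 0.896). Between all 4 tested probe sets r ran from -0.43 to 0.42, on either side of 0.

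Single arrays stood out in the last 2. In rc_AA957218_at the young arrays read 9.06, 12.01, 9.29, 9.71 and 9.42, with replicate 2 far above the rest, and the old arrays ran from 8.92 to 10.96. Without that young array the difference turned to 0.49 ± 0.42 (SE). In X75207_s_at old replicate 6 read 9.88 and the other old arrays 8.30 to 8.55, among young values of 7.39 to 8.89. The untested rc_AI231257_at was at the floor in 4 old and 2 young arrays and read 9.82 in old replicate 6. The 95% confidence intervals of the 4 tested probe sets ran from -2.76 to -0.34 for D14014_at, from -1.38 to 0.62 for D14014_g_at, from -1.08 to 1.00 for rc_AA957218_at and from -0.68 to 1.30 for X75207_s_at. For the mean of all 5 probe sets the difference was -0.44 ± 0.38 (SE, limma adjusted p = 0.815).

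Ccnd2, which encodes cyclin D2, had a probe set of wide spread and one with group means close together. D16308_at read 9.32, 9.54, 8.68, 5.57, 9.14 and 7.73 in old and 10.28, 10.41, 8.50, 6.26 and 10.52 in young. The lowest reading of each group came from replicate 4, a bright array in both, and 3 young arrays lay above every old one. The difference of -0.87 ± 0.78 (SE, limma adjusted p = 0.815) turned to 0.26 ± 0.69 (SE) with spike-in class as a blocking factor. It was -0.31 ± 0.69 (SE) without old replicate 4 and -1.60 ± 0.68 (SE, limma adjusted p = 0.499, unadjusted p = 0.0297) without young replicate 4. In rc_AA899106_at the old arrays read 10.10, 10.21, 9.10, 7.70, 10.37 and 10.75 and the young arrays 10.39, 9.59, 10.25, 9.48 and 9.46. Old replicates 3 and 4 were lowest and old replicate 6 highest, and the difference was -0.13 ± 0.47 (SE, limma adjusted p = 0.963, 95% confidence interval from -1.12 to 0.86). It became 0.52 ± 0.35 (SE) without old replicates 3 and 4. The r between the 2 probe sets was 0.51 with all arrays and -0.08 without these 2.

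**Figure D3:**
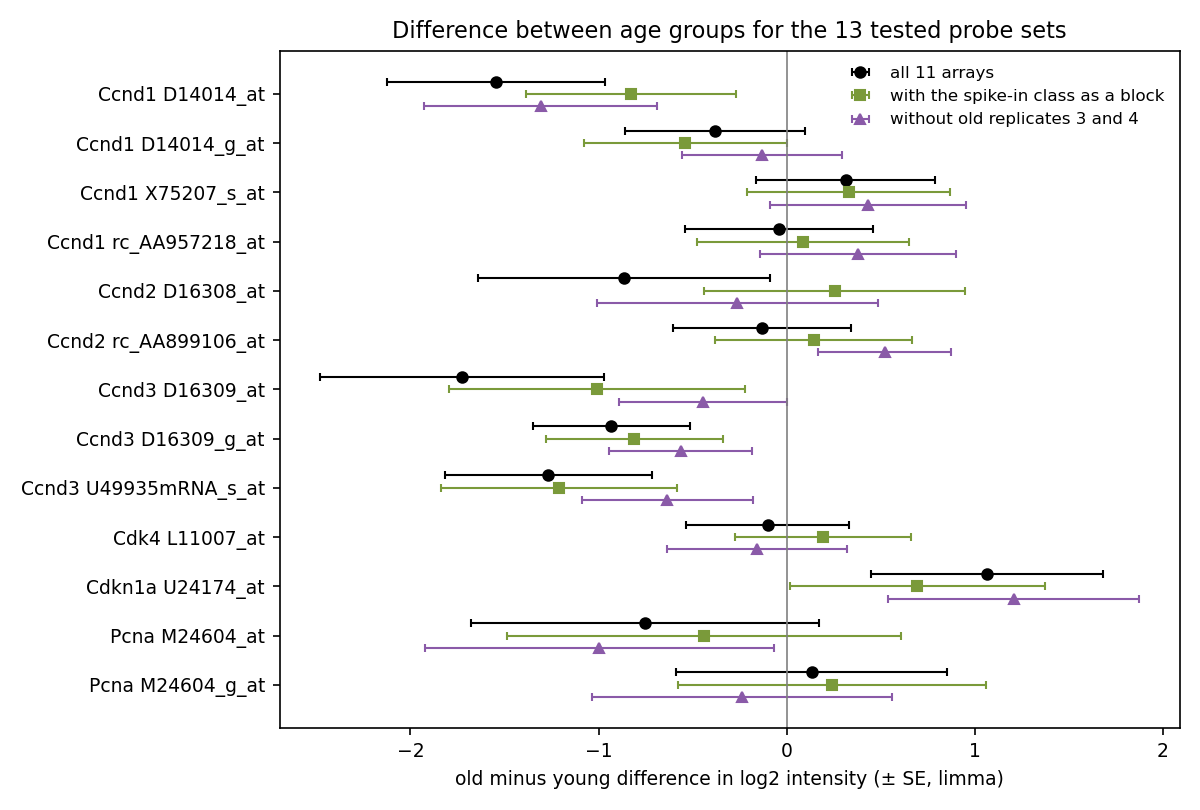
Old minus young difference in log2 intensity (horizontal axis, bars ± SE from limma) for the 13 tested probe sets (vertical axis), fitted on all 11 arrays (circles), with spike-in class as a blocking factor (squares) and without old replicates 3 and 4 (triangles). The 3 tested Ccnd3 probe sets, D14014_at and D14014_g_at of Ccnd1 and M24604_at of Pcna stayed below 0 in all 3 fits. U24174_at of Cdkn1a and X75207_s_at of Ccnd1 stayed above 0, and the others, those of Ccnd2 included, crossed 0.

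Cdk4, the kinase that D-type cyclins activate, had a single probe set, L11007_at. It read 8.93, 9.0, 8.73, 9.44, 8.20 and 9.52 in old and 9.65, 9.27, 9.18, 7.72 and 9.53 in young. The ranges largely coincided, with young replicate 4 lowest of all arrays. The difference was -0.10 ± 0.43 (SE, limma adjusted p = 0.972), and its 95% confidence interval from -1.0 to 0.81 does not show equal levels.

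Among the inhibitors, Cdkn1a had a higher mean in old hearts in its tested probe set and a lower one in the other. U24174_at read 7.48, 7.32, 6.90, 8.69, 10.40 and 7.65 in old and 6.60, 7.40, 6.95, 7.37 and 6.71 in young. Old replicates 4 and 5 were well above every young array, and old replicates 1 and 6, at 7.48 and 7.65, just above the highest young value of 7.40. Old replicates 2 and 3, at 7.32 and 6.90, lay among the young ones. The difference was 1.07 ± 0.62 (SE, limma adjusted p = 0.695, unadjusted p = 0.0993; exact permutation p = 0.0736), with 5 of 6 old arrays above the young mean. Without old replicate 5 it was 0.60 ± 0.56 (SE), and with spike-in class as a blocking factor 0.70 ± 0.68 (SE). L41275cds_s_at, below the filter, had an old mean of 6.24 ± 0.85 (SD, n = 6) against 6.81 ± 1.20 (SD, n = 5) for young. Old replicate 5, the highest array in U24174_at, read 6.18 here, inside the range of the young arrays. For the mean of both probe sets the difference was 0.25 ± 0.50 (SE, limma adjusted p = 0.921).

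Cdkn1b was dim on this array. D83792_at read 6.92, 5.57, 5.57, 7.75, 6.18 and 6.75 in old and 5.57, 7.87, 5.57, 5.57 and 6.12 in young. It lay at the floor in 2 old and 3 young arrays, and no test was made. Its old mean was 6.46 ± 0.85 (SD, n = 6) against 6.14 ± 1.0 (SD, n = 5) for young.

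Pcna, the sliding clamp, varied widely within both groups. M24604_at read 7.67, 6.04, 10.31, 5.57, 5.57 and 9.59 in old and 10.57, 8.30, 7.96, 5.57 and 8.66 in young, spanning the floor and over 10 in each group. The difference was -0.75 ± 0.93 (SE, limma adjusted p = 0.867). It was -2.02 ± 0.76 (SE, limma adjusted p = 0.586, unadjusted p = 0.0234) within the dim arrays and 2.19 ± 1.79 (SE) within the bright ones, of which 1 is young. M24604_g_at read 8.06, 6.45, 7.88, 9.19, 7.33 and 7.87 in old and 9.55, 8.11, 5.57, 6.09 and 9.01 in young. Its difference of 0.13 ± 0.72 (SE, limma adjusted p = 0.976) had the opposite sign, and r between the 2 probe sets was 0.41. Old replicate 4 shows the disagreement, at the floor in the first and second highest of 11 in the other.

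Other genes of the same pathway, taken from 5 lists, gave 0 calls among their tested genes, each read by its probe set of highest mean. Of all 3206 genes so tested 0 (0%) passed, and 3.18% were higher and 3.68% lower in old at an unadjusted p under 0.05. Of the other cyclins, kinases and their regulators, 16 of 43 were measured and 10 tested, of which 8 were lower and 2 higher in old. The median difference was -0.60, against -0.01 and 50.3% lower for all genes. Among the lower ones, Cdk5 and Cdc20 averaged 6.85 and 6.78 in old, under the filter of 7.0. They passed it through young means of 7.82 and 7.73, so the count of directions rests in part on the filter. At an unadjusted p under 0.05 this list had 1 gene higher and 0 lower. It was Ccnb1, which encodes the mitotic cyclin B1, at 1.41 ± 0.53 (SE, limma adjusted p = 0.56). Ccne1, which encodes the cyclin E1 that acts after the D-type cyclins in G1, differed by -1.38 ± 0.76 (SE), and Cdc25b, a phosphatase that activates cyclin-dependent kinases, by -0.71 ± 0.40 (SE).

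Of the retinoblastoma and E2F list, 4 of 13 genes were measured and 2 tested. Rbl2, a relative of the retinoblastoma protein, differed by -0.55 ± 0.63 (SE), and the histone deacetylase Hdac2 by -0.17 ± 0.61 (SE). Of the DNA replication list, 21 of 41 were measured and 16 tested, with 8 lower and 8 higher and a median of 0.03. In that list 1 gene was lower at an unadjusted p under 0.05, the tubulin gene Tubb5, at -0.67 ± 0.31 (SE, limma adjusted p = 0.643). Pold1 and Pola2, subunits of DNA polymerases delta and alpha, differed by -0.98 ± 0.58 and -0.90 ± 0.58 (SE). Pold1 averaged 6.67 in old, under the filter of 7.0, and passed it through its young mean of 7.65.

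Of the p53 and damage response list, which includes regulators and targets of the factor that induces Cdkn1a, 9 of 26 were measured and 7 tested. There were 4 lower and 3 higher, a median of -0.10 and 0 genes with an unadjusted p under 0.05. Gadd45a, a damage-induced target, differed by 0.43 ± 0.48 (SE), Parp1, a sensor of DNA breaks, by -0.50 ± 0.57 (SE) and Mdm2, the ligase that degrades p53, by -0.29 ± 0.44 (SE). Of signals that act on D-type cyclins, 23 of 31 were measured and 19 tested, with 9 lower and 10 higher, a median of 0.03 and 0 genes with an unadjusted p under 0.05. Junb, a growth-responsive transcription factor, differed by -1.18 ± 0.60 (SE), the kinase Akt2 by -1.06 ± 0.62 (SE) and the GTPase Nras by -0.79 ± 0.62 (SE).

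**Figure D4:**
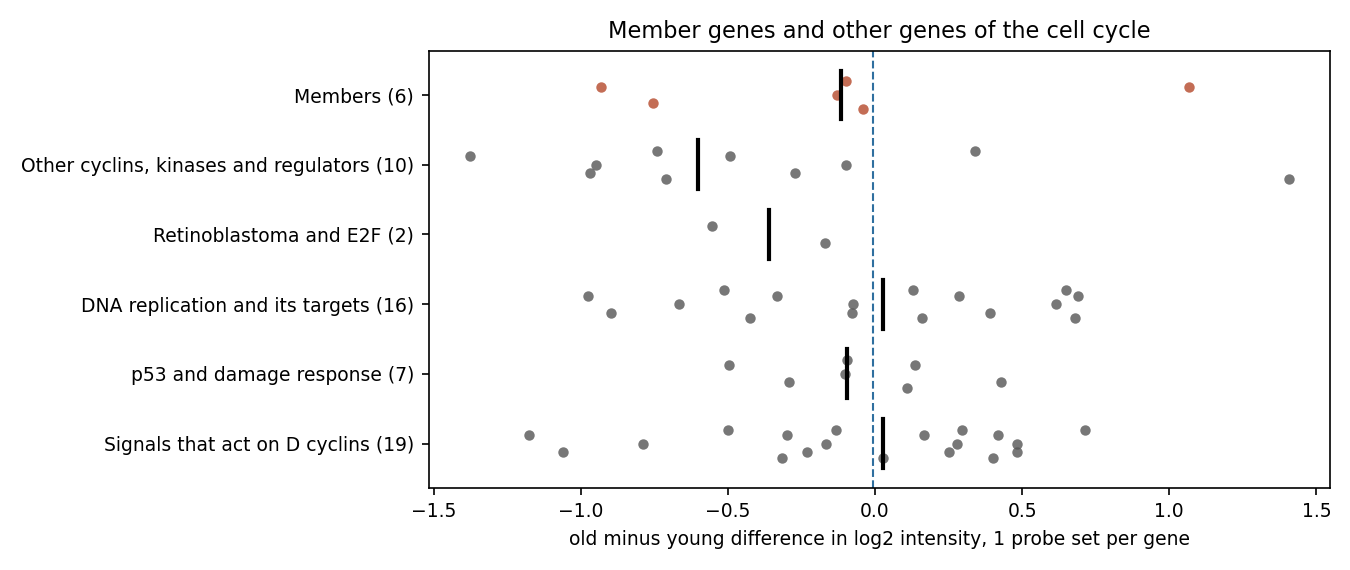
Old minus young difference in log2 intensity (horizontal axis) for the 6 tested member genes and the tested genes of each list (rows, number in brackets), 1 point per gene through its probe set of highest mean, with black bars for medians and a dashed line for the median of all 3206 genes. The replication, p53 and signal lists spread to both sides of 0, and 8 of 10 other cyclins, kinases and regulators lay below it. Of these, Cdk5 and Cdc20 averaged under the filter of 7.0 in old.

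The probe set most like each of these genes across the 11 arrays was found by Pearson's r, as a description among the tested probe sets of other single named genes. For Ccnd3 (D16309_g_at) these were Mapk14, the p38 alpha kinase, at r = 0.95, and Git1, a scaffold of small GTPase signalling, at 0.89. For Ccnd2 (rc_AA899106_at) they were Klc1, a kinesin light chain, at 0.94 and Ppp3r1, the calcineurin regulatory subunit, at 0.93, and 43 of 4308 probe sets reached 0.8. For Cdk4 they were Stmn1, a microtubule regulator, at 0.91 and Klc1 through another probe set at 0.89. For Cdkn1a (U24174_at) they were Add1 at 0.90 and Atp2c1 at 0.83, for Ccnd1 (rc_AA957218_at) Hk1 at 0.89 and Stmn4 at 0.86, and for Pcna (M24604_at) Supt5h at 0.85 and Igf2r at 0.84. For each gene these were the highest of the values for 4306 to 4309 probe sets, taken over 11 arrays. An r of 0.8 was reached by 19 probe sets for Ccnd3, 19 for Ccnd1, 22 for Cdk4, 3 for Cdkn1a and 2 for Pcna.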

How the data were processed

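The table deposited by the authors holds 1 linear intensity for each of 8799 Affymetrix probe sets on 11 arrays. No source used here names the software or background correction behind it. Each array's mean, trimmed by 2% at both ends, lay near 500, so the deposited scaling was kept, and differences are relative to other transcripts. The 59 controls were left out, values were floored at the 20th percentile and put on the log2 scale, and probe sets under the 40th percentile of mean log2 value were left out, leaving 5244. The age groups were fitted with lmFit and trended eBayes (limma 3.58.1, R 4.3.3), with Benjamini-Hochberg adjustment over all 5244. The scripts were tested on simulated data. The number of arrays limits the precision.

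The members, the gene lists and the alternatives were chosen with earlier results of these data known. All 17 member probe sets matched RefSeq (GRCr8) by gene number. From each pathway list the text describes genes with an unadjusted p under 0.05 or, where fewer than 3 had one, the 3 of smallest p, and for each member gene the 2 probe sets of highest correlation. Cell type marker lists covered heart muscle, fibroblasts, endothelium, smooth muscle, leukocytes, red cells, fat cells, atrium and skeletal muscle; 0 of their genes passed. Alternatives covered floor, filter, normalization, trend, weights, blocks, arrays left out, an exact permutation test over 462 splits, and the mean of a gene's probe sets.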

Additional observations from a re-analysis of the deposited data

Results flagged for a closer look

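In 7 of 34 sets of values (17 probe sets in 2 age groups) 1 array lay further from its group than Dixon's 95% limit allows, where chance gives about 1 in 20 for values that are not floored. That rate cannot be set against the 7, since 4 of them are in the untested probe sets, where floored values narrow the rest of the group. For Ccnd1, young replicate 2 read 12.01 in rc_AA957218_at, with the nearest young array at 9.71. Old replicate 6 read 9.82 in rc_AI231257_at, nearest 6.41, and 9.88 in X75207_s_at, nearest 8.55. For Ccnd3, young replicate 4 read 7.31 in U49935mRNA_r_at, where the other young arrays were at the floor of 5.57. For Cdk4, young replicate 4 read 7.72 in L11007_at, below the nearest value of 9.18. For Cdkn1a, old replicate 1 read 7.89 in L41275cds_s_at, nearest 6.18. For Cdkn1b, young replicate 2 read 7.87 in D83792_at, nearest 6.12. In 4 of the 7, the array was old replicate 6 or young replicate 4, both with bright spike-ins.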

How the results depend on the processing

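No member probe set passed an adjusted p of 0.05 in any of 303 fits under the alternatives. All 3 tested Ccnd3 probe sets, D14014_at and D14014_g_at of Ccnd1 and U24174_at of Cdkn1a kept their direction under every alternative that could move it. Dropping the filter or the trend and the exact test leave a difference as it was, as does another floor for probe sets never at it. D14014_g_at shrank from -0.38 to -0.13 without old replicates 3 and 4. The causes of the following turns were not tested. With spike-in class as a blocking factor, Ccnd1 rc_AA957218_at turned to 0.089, Ccnd2 D16308_at to 0.26 and rc_AA899106_at to 0.14, and Cdk4 to 0.19. Within the bright arrays, Ccnd1 rc_AA957218_at was 0.046, Ccnd2 D16308_at 1.51, Cdk4 1.25 and Pcna M24604_at 2.19. Within the dim arrays, Ccnd1 rc_AA957218_at was 0.11 and X75207_s_at -0.11, Ccnd2 rc_AA899106_at 0.23 and Pcna M24604_g_at -0.80. Without old replicates 3 and 4, Ccnd1 rc_AA957218_at was 0.38, Ccnd2 rc_AA899106_at 0.52 and Pcna M24604_g_at -0.24. With array weights, Ccnd1 rc_AA957218_at was 0.37 and Pcna M24604_g_at -0.79, and Pcna M24604_at was -1.98 (limma unadjusted p = 0.0198). When each array was left out in turn, Ccnd1 rc_AA957218_at ran from -0.26 to 0.49, Ccnd2 rc_AA899106_at from -0.34 to 0.27, Cdk4 from -0.44 to 0.055, Ccnd2 D16308_at from -1.60 to -0.31, Ccnd1 D14014_g_at from -0.62 to -0.03, Pcna M24604_at from -1.41 to -0.16 and Pcna M24604_g_at from -0.39 to 0.60. The count of probe sets past the threshold was 0 and became 5 within the bright arrays, which have 1 young array assumed to vary like the old ones, 1 within the dim arrays, and 0 to 2 with single arrays left out, 2 without old replicate 5. The count at an unadjusted p under 0.05 was 394 and became 262 without old replicates 3 and 4, 116 within the bright arrays and 296 to 482 with single arrays left out. Deviations of same-numbered arrays correlated at -0.25 to 0.25. Differently numbered arrays were not compared, so whether replicate numbers pair the arrays was not settled. With the replicate block, which leaves old replicate 6 without a partner, 0 probe sets passed and 393 had an unadjusted p under 0.05. In that fit Ccnd3 D16309_at differed by -2.04 ± 0.47 (SE, limma adjusted p = 0.437, unadjusted p = 0.00068).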
